A study of Mus musculus with 20 samples.

Results

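DNA methylation was described at 10 genes that handle 5-fluorouracil (5FU) or the uracil it leaves in DNA: Tyms, Dpyd, Upp1, Umps, Tk1, Dut, Ung, Smug1, Tdg and Mbd4. The measurements were taken from all bins of 100 bp from 5 kb before the start of the RefSeq gene record to its end, 380 of the 1201951 bins that hold a value, measured or filled in, in each of the 20 samples. The rule uses positions alone. The samples are haematopoietic stem cells (HSCs) of female C57BL/6 mice (C57BL/6 J in the methods of the study) that began at 3 months of age and received no 5FU (0x, n = 4), 2 cycles (2x, n = 6), 4 cycles (4x, n = 4) or 10 cycles (10x, n = 6) at 150 mg per kg, 1 injection every 3 weeks. The cells were taken 1 month after the last cycle, and all groups share strain and sex. In the labels the tissue is blood, while the methods of the study describe sorting from bone marrow, and nothing in the labels states whether a sample is 1 mouse. P-values therefore cover no more than the differences among samples of a group, possibly technical ones. Reduced representation bisulfite sequencing (RRBS) reads methylation in restriction fragments rich in CpG, and each deposited value is the percent methylation of a bin, with no read number. The depth behind a value is thus unknown and no counting interval can be given.

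5FU is a pyrimidine analogue that becomes active only after it is turned into a nucleotide. Upp1 (uridine phosphorylase), Umps (uridine monophosphate synthase) and Tk1 (thymidine kinase) take part in that activation, the product blocks thymidylate synthase (Tyms), and dihydropyrimidine dehydrogenase (Dpyd) carries out the first and rate-limiting step of its breakdown. When thymidylate runs short, uracil enters DNA. Dut hydrolyses dUTP and so keeps uracil out, while the DNA glycosylases Ung, Smug1, Tdg and Mbd4 excise uracil, or thymine from mismatches. Tdg also removes oxidised forms of methylcytosine during active demethylation, and Mbd4 binds methylated CpG. In most cells CpG-rich promoters of active genes are unmethylated and gene bodies are methylated.

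The sequences of the bins to which the comparisons below return are given first, because the number and spacing of their CpG sites differ. They were read from the GRCm38 (mm10) reference on the strand of the gene, with CpG sites in capitals. Distances run from the start of the gene record to the middle of a bin.

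Smug1 -1.41 to -1.21 kb (chr15:103170100-103170399, minus strand): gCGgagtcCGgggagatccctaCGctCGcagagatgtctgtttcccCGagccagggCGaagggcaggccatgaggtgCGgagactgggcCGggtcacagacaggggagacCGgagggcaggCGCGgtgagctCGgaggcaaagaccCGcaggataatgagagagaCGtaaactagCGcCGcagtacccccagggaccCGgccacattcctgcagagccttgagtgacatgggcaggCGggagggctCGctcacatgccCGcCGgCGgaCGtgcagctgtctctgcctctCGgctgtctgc
Smug1 -2.21 kb (chr15:103171100-103171199, minus strand): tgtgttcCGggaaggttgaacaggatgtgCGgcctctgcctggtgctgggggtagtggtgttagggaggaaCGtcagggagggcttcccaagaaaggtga
Smug1 -3.61 kb (chr15:103172500-103172599, minus strand): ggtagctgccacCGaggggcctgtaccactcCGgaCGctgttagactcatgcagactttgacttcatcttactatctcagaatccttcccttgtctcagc
Ung +0.98 kb (chr5:114131300-114131399, plus strand): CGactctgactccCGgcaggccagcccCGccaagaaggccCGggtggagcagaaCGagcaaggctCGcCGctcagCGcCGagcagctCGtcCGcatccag
Dpyd +0.24 to +0.34 kb (chr3:118562300-118562499, plus strand): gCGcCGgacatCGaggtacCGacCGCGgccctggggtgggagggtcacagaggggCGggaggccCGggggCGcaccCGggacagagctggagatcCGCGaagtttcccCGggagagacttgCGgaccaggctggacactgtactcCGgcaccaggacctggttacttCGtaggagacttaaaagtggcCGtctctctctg
Dpyd +610.54 kb (chr3:119172600-119172699, plus strand): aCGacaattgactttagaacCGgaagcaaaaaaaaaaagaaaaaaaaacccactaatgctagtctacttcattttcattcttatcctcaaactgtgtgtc

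The Smug1 block from -1.41 to -1.21 kb held 24 CpG sites in 3 adjacent bins, whereas the bins at -2.21 kb and -3.61 kb held 3 each. The Ung bin, in a coding exon, held 11 CpG sites. The Dpyd block near the start held 17, and the intronic Dpyd bin at +610.54 kb held 2. Over the members, promoter bins held a median of 6 CpG sites, bins of the upstream flank 3 and bins of gene bodies 2.

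Of the 380 bins, 76 lay within 1 kb of a start (promoter), 30 lay from 5 to 1 kb before it (upstream flank) and 274 lay in gene bodies, 156 of them in Dpyd, whose record spans 870.816 kb. In 140 bins (36.8%, against 36.1% of the series) a value other than 0 or 100 recurred exactly within a group. Per the methods of the study, missing bins were filled with the group mean, so bins of this kind are given apart. Another 160 bins (42.1%, against 40.3% of the series) held the same 0 or 100 in all 20 samples, 28 at 0 and 132 at 100. Of the other 80 bins, 64 had at least 1 group at 0 or 100 throughout. This was the case for 2x in 56 of the 64, for 0x in 32, and for 4x and 10x in 18 each. Only 16 bins, 4.21% against 7.0% of the series, had no repeated value and varied within every group, 7 in promoters, 6 in flanks and 3 in bodies. These 16 bins are called the fully varying bins, and the tests below rest on them. Tyms, Tk1, Dut and Tdg have none.

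**Figure D1:**
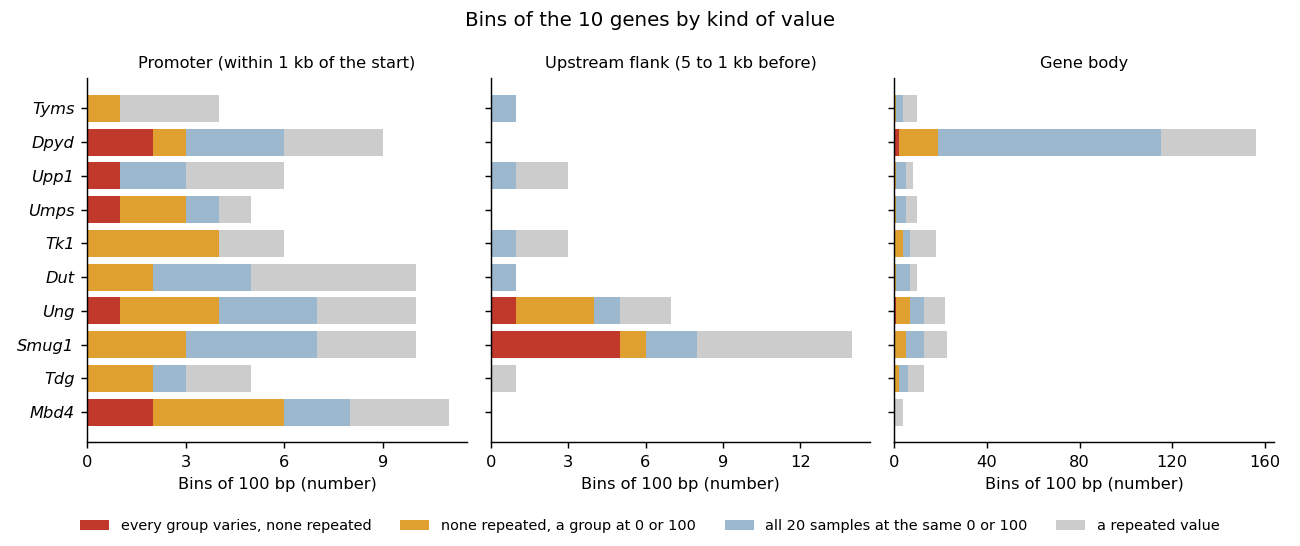
Number of 100 bp bins (x axis) of each of the 10 genes (y axis) in the promoter, the upstream flank and the gene body, split by colour into 4 kinds of value. Only 16 bins, in red, vary within every group without a repeated value, and Dpyd holds 156 of the 274 body bins.

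Pooled over the 10 genes, most promoter bins were low in methylation and most body bins high, though not at every gene. At Tk1, 2 of the 4 promoter bins without a repeated value were over 90% in 0x, and Mbd4 had no body bin without a repeated value. Values are given as mean ± SD over the 4 or 6 samples of a group. In 0x, 40 of the 48 promoter bins without a repeated value (83.3%) were under 10% methylation and 6 were over 90%. Over all genes of the series, 68.4% of such promoter bins were under 10%. In bodies, 156 of 175 bins (89.1%), 106 of them in Dpyd, were over 90%, against 79.6% over all genes. The flanks stood between them, with 7 of 17 bins (41.2%) from 10 to 90%, against 9.38% over all genes, and 6 of these 7 belonged to Smug1. As a description only, promoters of HSC genes were unmethylated in 0x, with 8 of 9 under 10% (median 0.523%), and those of T cell genes were over 50% in 4 of 4. Promoters of B cell genes were over 50% in 2 of 3, of stromal genes in 2 of 5, of erythroid genes in 1 of 3, and of granulocyte and macrophage genes in 1 of 2, the only 2 of 7 with bins. Stromal promoters were also under 10% in 2 of 5 genes and erythroid ones in 1 of 3, and those of the remaining lists in none. As low promoters are common over all genes, the HSC share does not by itself identify the cells.

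**Figure D2:**
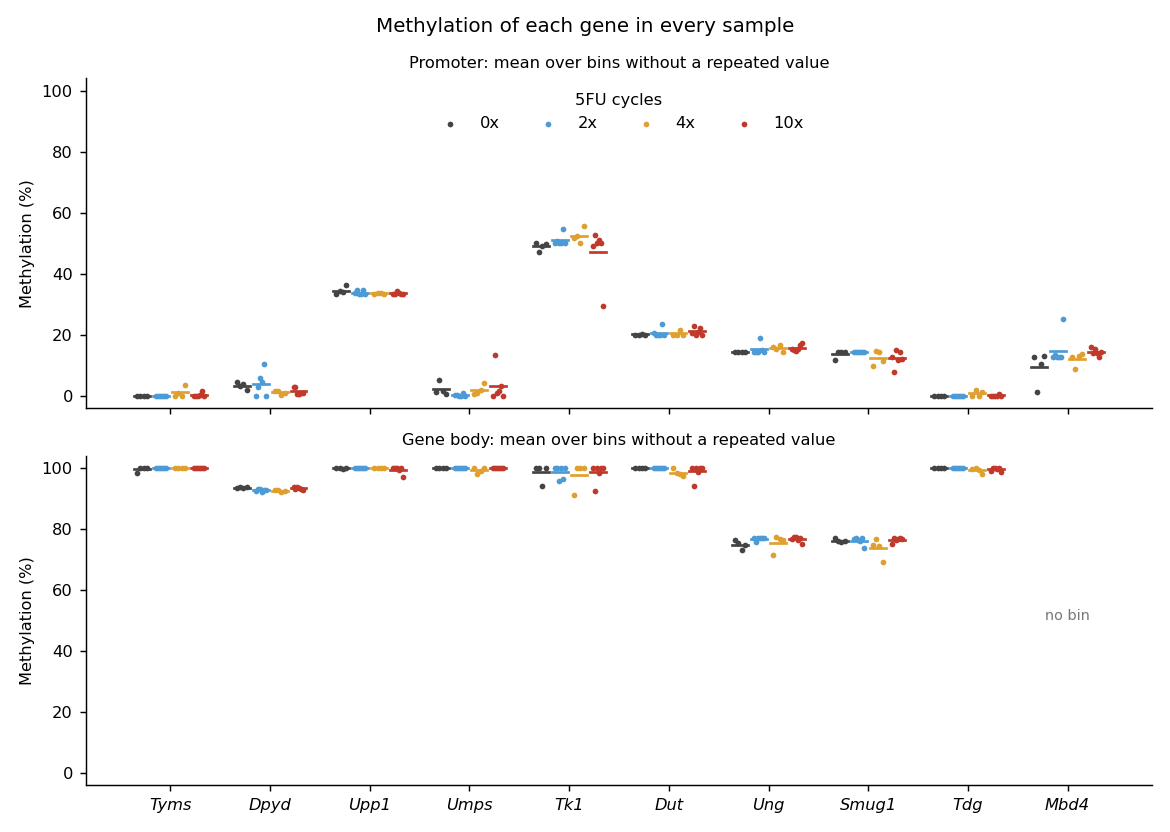
Mean methylation in percent (y axis) of the promoter (top) and gene body (bottom) of each gene (x axis), over its bins without a repeated value. Points are samples, coloured by the number of 5FU cycles, and short lines are group means. Promoters of Tyms, Dpyd, Umps and Tdg lie near 0 and most bodies near 100 in all 4 groups, and Mbd4 has no such body bin.

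Among the genes of activation, Upp1 (chr11:9118008-9136170) had 3 promoter bins without a repeated value, whose mean was 34.4% ± 1.23 without 5FU and 33.6% ± 0.372 after 10 cycles. That mean joins 1 bin near 100% and 2 near 0. Its fully varying bin at +0.44 kb, in an intron, held 0, 2.61, 1.76 and 8.48% in the 0x samples. It held 0, 1.34, 0.465 and 0% in 4x, and from 0 to 2.78% in 10x with a median of 0.169%. The groups overlapped, and the difference of 10x was -2.48 points (SE 1.75, limma, adjusted p = 0.859), and -0.73 without the 0x sample at 8.48%, numbered 14. The Upp1 body over 5 bins was at 99.9% ± 0.227 without 5FU and at 99.4% ± 1.27 after 10 cycles.

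Umps (chr16:33954782-33967038), which joins orotate to ribose phosphate and converts the product to uridine monophosphate, had an unmethylated promoter, at 2.09% ± 2.13 in 0x over 4 bins. Its fully varying bin at +0.39 kb held 5.22, 0.224, 5.60 and 1.75% in 0x and 1.76, 1.90, 0 and 0% in 4x. In 2x it ran from 0 to 3.49% with a median of 0.321%, and in 10x from 0 to 4.46% with a median of 1.93%. Every treated group overlapped 0x. The bin at the start itself was at 0 in all 0x and 2x samples and reached 33.3% in one 10x sample, with a 10x median of 1.48%. The 5 body bins were at 100% in 0x, 2x and 10x and at 99.2% ± 0.968 in 4x.

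Tk1 (chr11:117815519-117826087) shares its promoter with Afmid on the other strand, which covers all 6 of its promoter bins. The bin at +0.04 kb was at 0 in all 0x and all 2x samples. It held 9.06, 6.16, 0 and 17.7% in 4x, and in 10x it ran from 0 to 10.5% with a median of 0. Higher values thus occurred in 3 of 4 and 2 of 6 samples and overlapped 0x at 0. At -0.66 kb the bin was at 96.7% or more in 0x and at 100% in 2x and 4x, and 1 of the 6 samples of 10x was at 20%. The Tk1 body ranged from 97.7% to 98.6% in the group means over 7 bins.

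Tyms (chr5:30038546-30073645), the target of the activated drug, had 1 promoter bin without a repeated value, at +0.40 kb. It was at 0 in all samples of 0x and 2x, at 0, 0.826, 0 and 3.61% in 4x, and from 0 to 1.46% in 10x with a median of 0. The mean of its 4 body bins was 98.3% or more in every sample. The Tyms promoter thus stayed within 3.61 points of 0 in all 20 samples in this bin.

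Dpyd (chr3:118562109-119432924), the enzyme that degrades 5FU, had a low promoter, at 3.27% ± 1.19 over 6 bins without 5FU and at 1.44% ± 1.08 after 10 cycles. The bin at +0.34 kb held 16.7, 19.2, 22 and 0% in 0x and 9, 5.71, 0 and 4.26% in 4x. In 2x it ran from 0 to 50% with a median of 8.41%, and in 10x from 0 to 17.6% with a median of 0. In 10x 4 of the 6 samples were at 0, as was 1 of the 4 samples of 0x. All 4 were numbered above 12, and the difference of 10x was -2.18 points among samples numbered 1 to 12 and -11.0 among the others. The mean of its 2 fully varying promoter bins differed from 0x by -5.73 points in 4x (SE 1.62, limma, adjusted p = 0.972) and by -4.99 points in 10x (SE 2.06, limma, adjusted p = 0.810). Neither passed after adjustment over 13988 promoters. Before adjustment, limma put 10x under 0.05 in 3 of the 10 fits that left out a sample and 4x in 8 of 8.

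The body of Dpyd had 115 bins without a repeated value, and 106 were over 90% in 0x. Its mean was 93.5% ± 0.17 without 5FU. After 2, 4 and 10 cycles it was 92.7% ± 0.34, 92.4% ± 0.304 and 93.2% ± 0.363. With the bins at 0 or 100 throughout a group added to the fit, limma called the body lower for 2x (-4.94 points, adjusted p = 0.0256) and 4x (-6.56 points, adjusted p = 0.0324). That fit took the mean of 19 body bins. The bin at +208.04 kb alone brought a difference of -100 points into the 2x mean, while 0x and 4x were both at 100 there. Spread over 19 bins, that is more than the whole 2x difference of -4.94 points. It also outweighs the fall of the 2x mean over 115 bins. The other bins together were thus not lower in 2x, although no fit without this bin was run. The share of all bodies called in this setting was not worked out. In the 2 fully varying bins alone the differences were -0.738 and 1.60 points, neither of them called, so the direction for 4x turned with the bins used. Over all alternatives the adjusted p ran from these values to above 0.99. Within this methylated body, 6 intronic bins were at 0 in all 20 samples, from +70.54 kb to +766.14 kb, and none lay within 1 kb of an annotated transcript start. The fully varying bins at +2.04 kb and +610.54 kb were at 97.3% ± 5.36 and 97.0% ± 3.56 without 5FU and at 99.6% ± 0.470 and 97.3% ± 2.68 after 10 cycles. Outside the tested bins, a single bin could differ between groups throughout. At +208.04 kb all samples of 0x and 4x were at 100 and all 6 of 2x at 0, while 10x held 5 values from 93.9 to 100% and 1 value of 0. Where a group is at 0 or 100 throughout, how many of its samples were measured is not known.

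Dut (chr2:125247248-125259049), which hydrolyses dUTP, had 5 promoter bins without a repeated value, 4 of them under 10% and 1 over 90% in 0x. Their mean was 20.1% ± 0.134 without 5FU and 21.1% ± 1.17 after 10 cycles. The body was at 100% in 0x and 2x over 7 bins. At +2.70 kb, in an intron, it held 100, 88.2, 85 and 80.9% in 4x and from 57.6 to 100% in 10x with a median of 100%. Lower values thus occurred in 3 of 4 and 2 of 6 samples, against none in 0x and 2x.

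Ung (chr5:114130366-114139321), the main uracil glycosylase, shares 16 bins upstream and around its start with Alkbh2 on the other strand. Of its 7 promoter bins without a repeated value, 6 were under 10% in 0x. The bin at +0.98 kb, whose sequence is given above, lies outside Alkbh2. It held 0, 0, 0 and 0.279% in 0x. In 10x it ran from 2.24 to 5.56% with a median of 3.61%. All 6 samples of 10x lay above all 4 of 0x, and in none of the other 47 comparisons of the 16 fully varying bins with 0x were the groups apart. Over the 84131 such bins of the series the groups were apart in 0.676, 1.95 and 1.32% for 2x, 4x and 10x, and 1 bin of 16 is too few to set against these shares. In 2x the values ran from 0 to 31.2% with a median of 0, and in 4x they were 12.2, 2.34, 0 and 0%, both overlapping 0x. The difference of 10x was 3.53 points (SE 1.15), under the minimum of 10 points, and limma gave an adjusted p of 0.600 over 84131 bins. Over its 17 alternatives the adjusted p ran from 0.00324, when all deposited bins were fitted, to above 0.99. The difference was 3.23 points among samples numbered 1 to 12 in the labels and 3.64 among those numbered 13 to 34. In the latter set the 10x samples are numbered 31 to 34 and the 0x samples 13 and 14.

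The other Ung bins were less regular. At -2.12 kb, in an exon of Alkbh2, 0x held 0, 0, 0.352 and 11.9%, 4x held 0, 3.40, 7.84 and 0%, and 10x ran from 0 to 3.21% with a median of 2.10%. In the body, 7 of 13 bins without a repeated value were over 90% in 0x, and the 3 under 10% lay within 1.38 kb of the start. The intronic bin at +4.68 kb held 100, 100, 95.4 and 61.2% in 0x and from 95.9 to 100% in 10x with a median of 100%, a difference of 10.0 points (SE 6.99, limma, adjusted p = 0.859). It was -2.07 points among samples numbered 1 to 12 and 21.5 among the others. Without the 0x sample at 61.2%, numbered 14, it was 0.71 points.

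**Figure D3:**
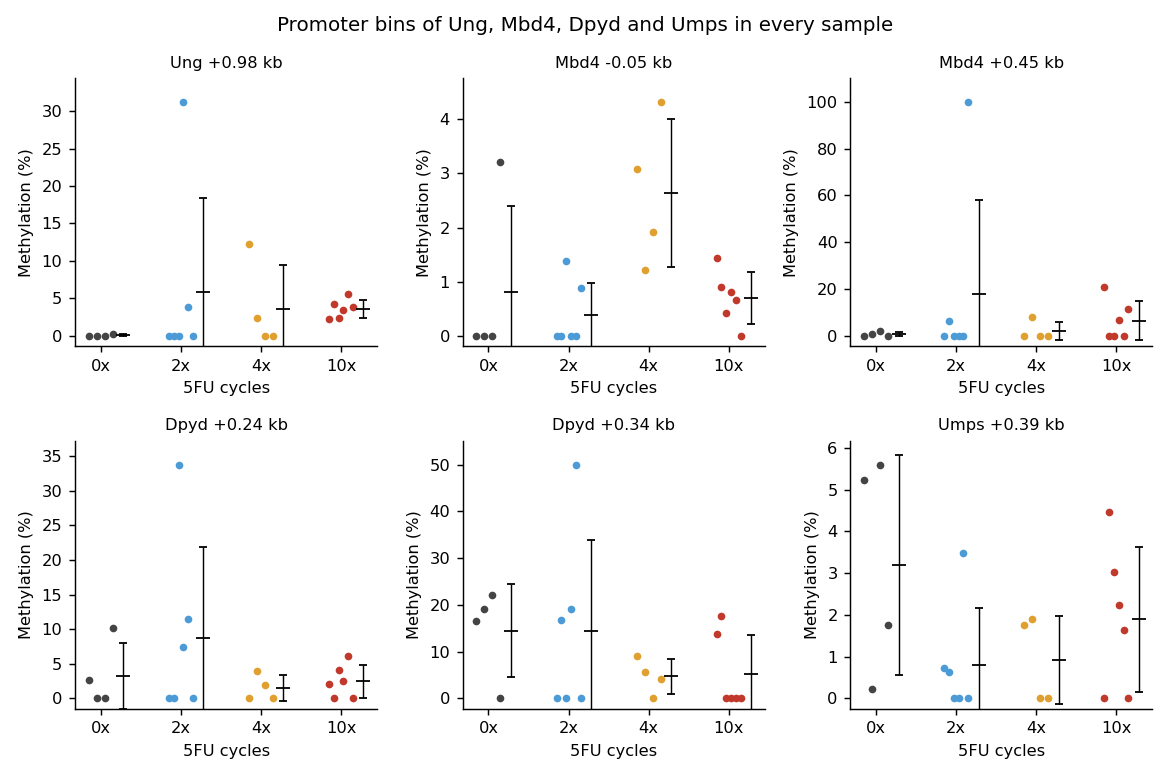
Methylation in percent (y axis, a separate scale in each panel) in every sample of 0x, 2x, 4x and 10x (x axis) for the fully varying promoter bins of Ung, Mbd4, Dpyd and Umps. Black bars are mean ± SD, some of them cut at the lower axis limit. In the Ung bin at +0.98 kb all 10x samples, at 2.24 to 5.56%, lie above the 0x samples, at 0 to 0.279%, and the other panels overlap between 0x and 10x.

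Smug1 (chr15:103153290-103168939), another uracil glycosylase, which also removes oxidised pyrimidines, stood apart in its upstream flank. The record starts with a predicted transcript, and the first curated start lies 5655 bp further into the gene. Around the start of the record, 6 of 7 promoter bins without a repeated value were under 10% in 0x, and 4 of them were at 0 in all 20 samples. Around the curated start, bins at +5.49 and +5.69 kb were also at 0 in all 20, as was 1 at +3.39 kb close to another annotated start. From -1.21 to -3.61 kb, by contrast, 6 bins without a repeated value were neither near 0 nor near 100 in 0x, and their means ran from 14.1 to 86.7%.

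The Smug1 bin at -2.21 kb held 54.4, 100, 100 and 92.3% in 0x. It held 67.1, 53.8, 46.9 and 61.2% in 4x. In 2x it ran from 0 to 100% with a median of 44.1%, and in 10x from 27.3 to 69.4% with a median of 59.9%. In 0x 3 of the 4 samples lay above every sample of 4x and 10x, and 1 lay among them. The difference from 0x was -39.2 points for 2x (SE 18.4, limma, adjusted p = 0.998), -29.4 for 4x (SE 10.8, adjusted p = 0.975) and -30.5 for 10x (SE 10.6, adjusted p = 0.648). None passed after adjustment, and the 3 comparisons share the 0x samples. Among samples numbered 1 to 12 the differences of 2x, 4x and 10x were -13.2, -16.8 and -32.7 points, and among the others -57.0, -42.1 and -34.1. The sizes were thus alike between these sets for 10x but not for 2x and 4x. For 10x, the adjusted p ran from 0.129 to above 0.99 over 17 alternatives. Before adjustment it was under 0.05 in 8 of the 10 limma fits that left out a sample, and its size then ran from -41.3 to -24.7 points.

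The Smug1 bin at -1.21 kb, the last of the CpG-rich block, differed from 0x by -6.32, -12.2 and 17.7 points for 2x, 4x and 10x, so only 10x was on the other side. Leaving out 1 sample gave from -11.4 to -0.88 points for 2x, from -17.4 to -6.80 for 4x and from 12.5 to 23.1 for 10x, with the ends set by the 0x samples at 0 and by number 14. It held 29.8, 0, 0 and 31.7% in 0x and 0, 9, 3.53 and 0% in 4x. In 2x it ran from 0 to 25% with a median of 7.5%, and in 10x from 12.1 to 50% with a median of 36.3%. The samples of 10x overlapped those of 0x, and 10x was not tested against 4x. The slope was 2.34 points per cycle (SE 0.788, limma, adjusted p = 0.975). The means were 15.4% without 5FU and 9.05, 3.13 and 33% after 2, 4 and 10 cycles, so the order did not follow the number of cycles.

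The other bins of the flank varied without a common direction. At -1.41 kb 0x held 47.3, 25.3, 53.6 and 80.4% and 4x held 26.7, 48.1, 21.4 and 33%, and 10x ran from 27.5 to 52.1% with a median of 42.6%. At -1.31 kb the order was turned, with 11.9, 0, 28.2 and 16.1% in 0x and 28.1, 26, 28.6 and 17.3% in 4x. The 10x samples ran from 12.7 to 25.2% with a median of 18.2%. At -2.81 kb 3 samples of 0x lay between 59.0 and 63.0% and 1 was at 0, and 10x ran from 28.9 to 83.8%. At -3.61 kb 0x held 22.3, 32, 8 and 62.3%, 4x held 26.2, 7.84, 0 and 15.4%, all 6 samples of 2x were at 0, and 10x ran from 0 to 11.1% with a median of 0. Over the 8 flank bins without a repeated value, the mean was 43.1% ± 3.52 without 5FU. After 2, 4 and 10 cycles it was 31.7% ± 7.13, 33.6% ± 2.93 and 38.1% ± 3.13. Samples of 4x, at 30.8 to 37.4%, lay below those of 0x, at 39.9 to 47.8%, and the samples of 2x and 10x overlapped with 0x. In the 5 fully varying bins of this flank 4x and 0x overlapped, with 4x up to 38.3% and 0x down to 37.4%. They also overlapped in its 6 bins with a repeated value. Over all 14 deposited bins they were apart, with 4x up to 32.2% and 0x down to 32.6%. The separation thus depended on the bins used. The series has 13976 flanks with bins without a repeated value. In means over those bins, the groups were apart in 4.7, 4.44 and 3.06% of flanks for 2x, 4x and 10x. Flanks were not fitted as a unit, so the difference at Smug1 was not tested.

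**Figure D4:**
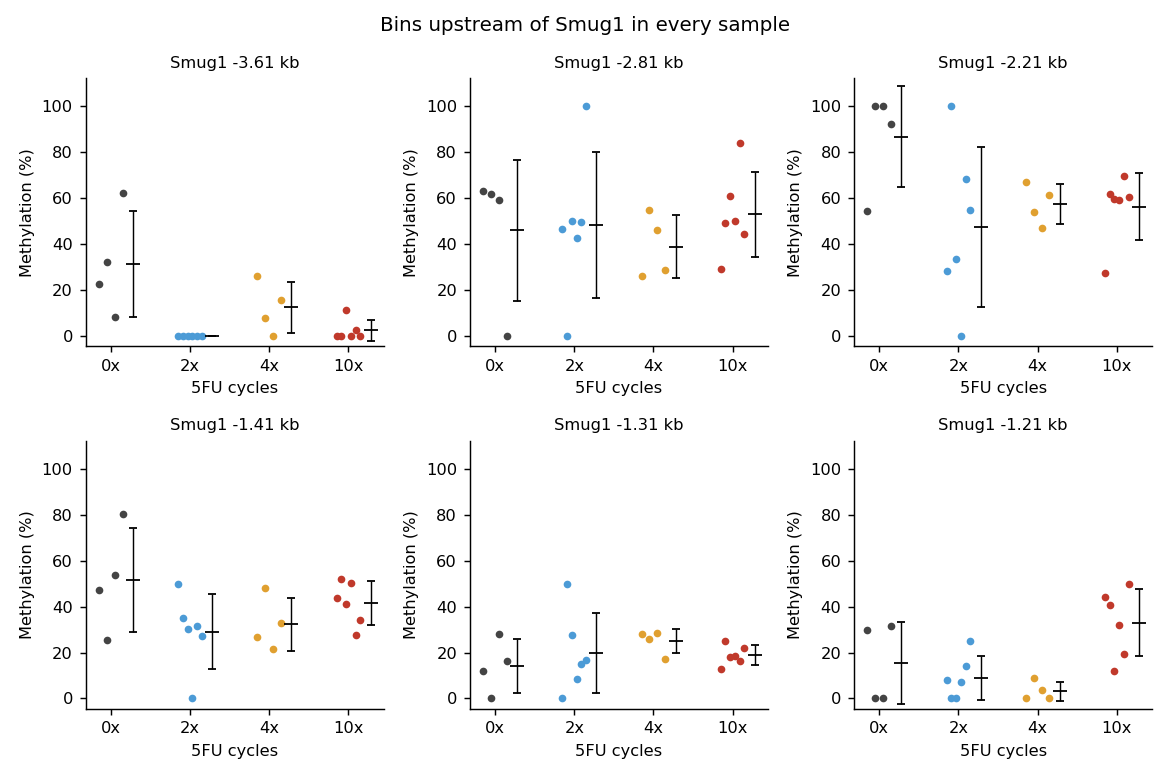
Methylation in percent (y axis) in every sample of 0x, 2x, 4x and 10x (x axis) for the 6 bins upstream of Smug1 that vary and hold no repeated value, ordered from the farthest to the nearest to the start. Black bars are mean ± SD. At -2.21 kb 3 of 4 samples of 0x lie above all samples of 4x and 10x, and at -1.21 kb the samples of 10x overlap those of 0x.

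The Smug1 body, over 13 bins without a repeated value, was at 76.1% ± 0.581 without 5FU and at 76.4% ± 0.737 after 10 cycles. At +0.89 kb, in an exon, the promoter bin held 82.6, 100, 100 and 100% in 0x, 100% in all of 2x and 67.2, 96.4, 100 and 67.7% in 4x, and 10x ran from 51.6 to 100% with a median of 82.5%. At +11.19 kb, in a coding exon, 0x held 100, 86.4, 82.8 and 87.5% and all other samples were at 100%.

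Tdg (chr10:82629814-82650799), which excises thymine and uracil opposite guanine, varied little in bins without a repeated value. Its 3 promoter bins without a repeated value were at 0 in all samples of 0x and 2x, at a mean of 0.769% ± 0.902 in 4x and of 0.0795% ± 0.179 in 10x. Its 6 body bins were at 100% in 0x and 2x, at a mean of 99.2% ± 0.848 in 4x and of 99.5% ± 0.562 in 10x. No sample thus had a mean over 1.73% in the promoter or under 98.0% in the body in these bins. Over all 13 deposited body bins the mean of 1 sample of 10x was as low as 87.8%, and the 1 flank bin, which holds a repeated value, averaged 31.1% without 5FU and 31.1, 74.4 and 0% after 2, 4 and 10 cycles.

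Mbd4 (chr6:115840697-115853400) shares 6 of its 11 promoter bins with Ift122 on the other strand. Of 8 promoter bins without a repeated value, 7 were under 10% in 0x. The bin at the start, at -0.05 kb, held 0, 0, 0 and 3.21% in 0x and 3.08, 1.21, 1.91 and 4.32% in 4x. It ran from 0 to 1.38% in 2x and from 0 to 1.44% in 10x. At +0.45 kb 0x held 0, 0.877, 2.13 and 0%, and 1 sample of 2x was at 100% while the other 5 ran from 0 to 6.42%. In 10x this bin ran from 0 to 20.8% with a median of 3.39%, a difference of 5.77 points (SE 4.14, limma, adjusted p = 0.859), and 2.91 without the 10x sample at 20.8%, numbered 11. The bin holds 1 CpG site. All 4 body bins of Mbd4 hold a repeated value.

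No bin of the 16 was called in any comparison, at an adjusted p under 0.05 and at least 10 points against 0x or, for the slope, at an adjusted p under 0.05. Over the 84131 fully varying bins of the series limma called 0.00357, 0.00713 and 0.0131% for 2x, 4x and 10x and 0.00119% for the slope. At an unadjusted p under 0.05 and at least 10 points, the Smug1 bin at -2.21 kb passed for 4x and 10x, and no bin passed for 2x. For the slope, the Smug1 bin at -1.21 kb passed. Over the series 2.86, 2.85 and 4.18% passed for 2x, 4x and 10x and 3.56% for the slope, so 1 of 16 (6.25%) is near the background. The Ung bin at +0.98 kb passed 0.05 before adjustment but not the 10 points. The median difference over the 16 bins was -0.519, -0.986 and 0.114 points for 2x, 4x and 10x, against 0.179, 0.320 and 0.509 over the series.

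Promoters and bodies were also taken as a mean. None of the 5 promoters with a fully varying bin (Dpyd, Upp1, Umps, Ung and Mbd4) was called by limma, against 0.0143, 0 and 0.00715% of all promoters for 2x, 4x and 10x and 0% for the slope. At an unadjusted p under 0.05, no promoter passed for 2x or the slope, Dpyd passed for 4x, and Dpyd and Ung passed for 10x, which is 20 and 40% of 5. The background was 3.24, 3.57 and 5.78% for 2x, 4x and 10x and 3.52% for the slope. The Ung promoter rests on the bin at +0.98 kb alone, and as a promoter its adjusted p in 10x was 0.488. Neither of the 2 bodies with such bins, Dpyd and Ung, was called, against 0.00771, 0 and 0.0462% of bodies for 2x, 4x and 10x and 0.00771% for the slope. None passed at an unadjusted p under 0.05, where the background was 4.31, 4.45 and 7.96% for 2x, 4x and 10x and 4.78% for the slope.

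**Figure D5:**
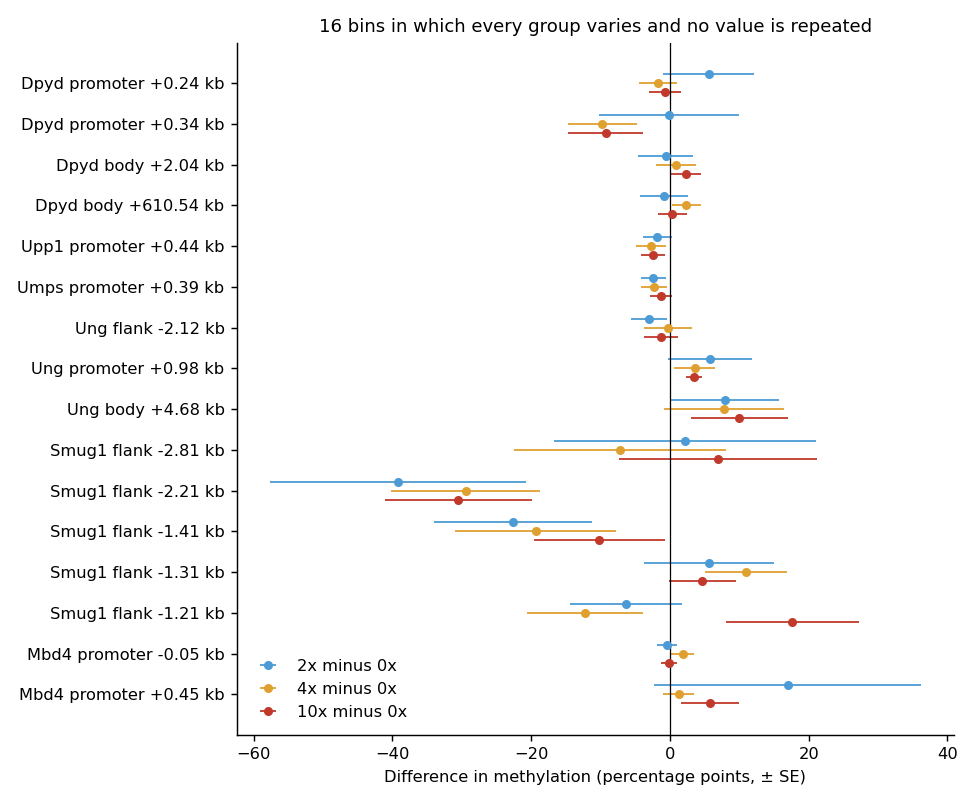
Difference in methylation from 0x in percentage points (x axis) of the 16 fully varying bins (y axis, named by gene, region and distance from the start) in 2x, 4x and 10x. Points are differences of group means and lines are ± SE of the limma fit. The Smug1 bin at -2.21 kb has the largest differences, -39.2, -29.4 and -30.5 points, and no bin passed after adjustment.

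Calls appeared once bins with repeated values, or at 0 or 100 throughout a group, were fitted too. Over all deposited bins that vary, limma called 37 of 219 member bins in 2x (16.9%, against 14% of the series), 20 in 4x (9.13% against 9.96%), 23 in 10x (10.5% against 10.8%) and 16 for the slope (7.31% against 9.23%). The shares were close to the background in each comparison. Every one of these calls had a group that held a single value, and none was a fully varying bin. In 23, 19 and 17 of the calls of 2x, 4x and 10x both compared groups held a single value, so the fit saw no spread at all. How such values arose was not tested. Examples are the Tk1 flank at -2.36 kb, at 100% throughout 0x and 2x and at 47.5% throughout 4x and 10x, and the Upp1 promoter at -0.66 kb, at 24.3% throughout 0x and 10x and at 0 throughout 2x and 4x. In both bins the same value thus stood in 2 groups. The Smug1 promoter bin at +0.29 kb, in an exon, was at 0 in all of 0x, and in 10x it ran from 40.7 to 50% with 4 of 6 samples at the same value.

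Promoter means over all deposited bins that vary were called for Dut (7.33 points, SE 1.88) and Upp1 (-5.19 points, SE 0.40) in 2x, for Tyms (2.22 points, SE 0.284) and Upp1 (-6.59 points, SE 0.636) in 4x, and for Tyms (1.55 points, SE 0.237) in 10x. None was called for the slope. The background was 21.9, 14 and 15.4% of promoters for 2x, 4x and 10x and 9.13% for the slope. Bins with and without a repeated value differed in these promoters. The 3 Tyms bins with a repeated value averaged 0.232% ± 0.155 without 5FU and 2.20% ± 0.652 after 10 cycles, while its bin without one averaged 0 and 0.285%. The 5 Dut bins with a repeated value averaged 3.04% ± 4.99 without 5FU and 12.7% ± 4.22 after 2 cycles, and those without one 20.1 and 20.7%.

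Body means over all deposited bins that vary were called lower for Dut, Mbd4, Tyms, Umps and Upp1 in 2x and for Mbd4 and Umps in 4x. In 10x Mbd4 and Upp1 were higher and Dut and Umps lower, and the slope was positive for Mbd4 and Upp1. The background was 32.7, 20 and 26.3% of bodies for 2x, 4x and 10x and 17.8% for the slope. The 4 bins of the Mbd4 body each held 1 value per group, and their mean was 86.1% without 5FU and 67.1, 69.8 and 97.2% after 2, 4 and 10 cycles, with no spread between samples. In bins without a repeated value, by contrast, the bodies of Tyms, Umps, Dut and Upp1 lay between 98.4 and 100% in all group means.

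The wider pathway was treated in the same way, with 77 further genes of uracil and thymidylate metabolism, folate, transport, and base excision and mismatch repair, 76 of them annotated. In the fully varying bins limma called none of 49 promoters and none of 39 bodies in any comparison. At an unadjusted p under 0.05, 0, 1, 4 and 2 promoters and 1, 1, 5 and 2 bodies passed for 2x, 4x, 10x and the slope, beside the background given above. By list, the promoters tested were 22 of metabolism, 19 of repair, 7 of folate and 1 of transport. Over all deposited bins, 11 of 70 promoters were called in 2x (3 higher, 8 lower), 7 in 4x (6 higher, 1 lower) and 14 in 10x (6 higher, 8 lower), against 21.9, 14 and 15.4% of all promoters. Among them was Dpys (47.4 points, SE 13.2, limma, adjusted p = 0.0437) in 10x, which takes the step of 5FU breakdown after Dpyd. Of the 74 bodies 17 were called in 2x (12 higher, 5 lower), 15 in 4x (10 higher, 5 lower) and 12 in 10x (9 higher, 3 lower), against 32.7, 20 and 26.3% of all bodies. Among them was Nt5c, a nucleotidase, lower in 2x (-49.2 points, SE 0.0734) and higher in 10x (50.8 points, SE 0.152). Both SEs equal those of the Mbd4 body, whose bins held 1 value per group, so the fit saw no spread between samples at Nt5c.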

How the data were processed

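RRBS profiles of 20 samples were used, in 4 groups (0x, 2x, 4x, 10x). The submitters' processing notes name Trim Galore 0.4.3 for trimming, Bismark 0.23.1 with the mm10 build and methylKit 1.22.0. Per the study's methods, the authors asked for 10 reads per base in methylKit, computed the level of a 100 bp window from its methylated and unmethylated calls where coverage exceeded 10, and used the average of the group in a window for imputation. What the authors deposited is a percent methylation per window. Read numbers are not in it, so depth and counting error are unknown, and limma on the percent stood in for a count test.

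Bins were assigned to RefSeq gene records of GRCm38.p6 (same coordinates as mm10) by the middle of the bin. Bins whose groups all vary and hold no repeated value other than 0 or 100 (84131 of 1201951) formed the tested set, in which a value filled in a single sample is not recognised. Each treated group was compared with 0x, and a slope was fitted over the number of cycles, with limma 3.58.1 in R 4.3.3, adjusted (Benjamini-Hochberg) over all bins (at least 10 points) or all genes (13988 promoters, 12973 bodies). The 3 comparisons share the 0x samples. Within-series values split the samples by label number (1 to 12, 13 to 34), a numbering whose meaning the labels do not give. Numbers above 20 occur only in 10x, as 31 to 34. Whether those samples share a series with the 0x samples 13 and 14 is not known. Alternatives were other sets of bins, scales, samples and windows. The fit was tested on simulated normal values with changes placed only in bins of intermediate methylation. It therefore does not speak for bins near 0 or 100, where most member promoter and body bins lie. Named bins were taken from those nearest to the start and with the largest 10x difference in each region of a gene, and those past a test, and named pathway genes from the 4 with the largest difference among those called; the bins of all deposited data were chosen after their values were seen. The members, lists and tests were chosen with earlier results of these data known. Tables and figures were made in Python 3.11.15 (pandas 2.3.3, numpy 2.4.6, matplotlib 3.10.9, pysam 0.24.0).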

Additional observations from a re-analysis of the deposited data

Results flagged for a closer look

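In the 16 fully varying bins, 17 of 64 groups had a highest or lowest sample that stood far from the rest. The rule flags about 1 group in 20 when values are normally distributed. Percents that pile up at 0 or 100 are not, so that rate gives no background here. These samples were marked by their gap to the nearest other sample relative to the range of the group, which is large when all others sit at 0 or 100.

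Of the 17, 5 were the same sample of 0x, numbered 14: 11.9% in the Ung flank bin at -2.12 kb, 0.279% in the Ung promoter bin at +0.98 kb, 61.2% in the Ung body bin at +4.68 kb, 0% in the Smug1 bin at -2.81 kb where the next was at 59.0%, and 3.21% in the Mbd4 bin at -0.05 kb. The other samples of 0x were number 13, lowest at 89.3% in the Dpyd body bin at +2.04 kb, and number 01, lowest at 54.4% in the Smug1 bin at -2.21 kb.

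In 2x, number 15 was highest at 33.75% in the Dpyd bin at +0.24 kb and at 0.279% in the Ung flank bin, number 17 was lowest at 83.3% in the Dpyd body bin at +2.04 kb and highest at 3.49% in the Umps bin at +0.39 kb, number 16 was highest at 31.25% in the Ung bin at +0.98 kb, number 04 lowest at 82.8% in the Ung body bin, and number 18 highest at 100% in the Mbd4 bin at +0.45 kb, where the next was at 6.42%. In 4x, number 06 was highest at 8% in the same Mbd4 bin. In 10x, number 12 was lowest at 95.9% in the Ung body bin and number 11 lowest at 27.3% in the Smug1 bin at -2.21 kb. What sets these samples apart was not tested.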

How the results depend on the processing

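The number of member bins, promoters and bodies called was 0 in each of the 12 counts, and 221 of 237 alternatives left it at 0, among them all that left out 1 sample (lowest and highest 0), took all 4 groups in 1 fit, took the series of label numbers as a block, used the log2 scale or a variance trend, or changed the promoter window, the starts or the smallest difference. In the main fit at most 0.0131% of bins, 0.0143% of promoters and 0.0462% of bodies of the series were called. Counts that stay at 0 among so few members therefore say little about stability. The 16 alternatives that moved a count changed the bins or values fitted. All deposited bins that vary gave 37 bins in 2x, 20 in 4x, 23 in 10x and 16 for the slope, 2, 2 and 1 promoters in 2x, 4x and 10x, and 5, 2, 4 and 2 bodies in 2x, 4x, 10x and for the slope. With bins at 0 or 100 throughout a group included, 1 bin and 1 body were called in 2x and 1 body in 4x. The bin lies in Dpyd at +208.04 kb and both bodies are Dpyd. The Dpyd body differences were then -4.94 points (2x) and -6.56 (4x), against -0.738 and 1.60 in the fully varying bins. The called bin is part of that 2x mean. With repeated values set to missing, 1 bin was called in 2x, the same Dpyd bin, and 1 in 10x, the Smug1 promoter bin at +0.29 kb. Most values of 10x in the Smug1 bin were then missing. The shares of the series called in these 2 settings were not worked out, so these calls cannot be set against a background. These settings change which bins are fitted, and the last also the values and sample numbers within bins, so their parts cannot be told apart.

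Of 55 single values under 913 alternatives, 908 moved by less than the spread between samples and 5 moved by more. Many of the 908 could not move. The fit of all 4 groups, the log2 scale and the variance trend leave a difference of group means in percent unchanged by construction. For a single bin, so do the other sets of bins. The 908 are therefore no measure of stability. Among all alternatives 43 changed sign, 37 of them on leaving out a sample, and none of these values was called. The fit of all 4 groups does not apply to the slope. No paired analysis was possible because the groups share no replicate number. Read numbers were not used here, so what depth limits is unknown. Tyms, Tk1, Dut and Tdg had no bin in the tested set, and differences at them could not be tested there.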
